A study of Mus musculus with 2 samples.

Results

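The renin-angiotensin genes are described here in the adrenal gland of young male mice. They are 9 genes chosen by name for their place in the system, and not by a rule on values measured here: Ren1, Agt, Ace, Enpep, Agtr1a, Agtr1b, Agtr2, Mas1 and Atp6ap2. Earlier results of these data were known when they were chosen. The annotation holds 55536 genes, of which 22015 are nuclear protein-coding genes. Total RNA was sequenced in 2 libraries of a single group. The animals were males of the B6CASTF1/J hybrid, a cross of C57BL/6J with CAST/EiJ, at 14 days of age, with no treatment and no engineered allele named. The labels name the adrenal gland and no dissected zone, so a value can mix cortex, medulla, capsule and other tissue such as fat. The labels call the libraries biological replicates 1 and 2, and each began from 300 ng of RNA. They use the wording "3x Males" without explaining it and record 1 donor entry for both libraries. The pool number of males is 3 for both libraries in 1 field, but 3 and 4 in another. Whether the SD covers separate animals is thus unknown. The design has a single condition, so nothing was tested and the values are descriptions.

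Renin, made from Ren1, cuts angiotensinogen, the product of Agt, to the inactive peptide angiotensin I. Angiotensin-converting enzyme, from Ace, turns that peptide into angiotensin II, which acts on the AT1 receptors (Agtr1a and Agtr1b in rodents) and on the AT2 receptor (Agtr2). Angiotensin II is a main stimulus of aldosterone synthesis in the outer cortical zone of the adrenal, the zona glomerulosa. Enpep encodes aminopeptidase A, which trims angiotensin II to angiotensin III, and Mas1 encodes the Mas receptor for angiotensin-(1-7). Atp6ap2 encodes the (pro)renin receptor, a protein that is also an accessory part of the vacuolar proton pump.

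The libraries held 32963248 and 36260745 expected counts in replicates 1 and 2, of which 17154352 and 19024838 fell on nuclear protein-coding genes. Levels are given in TPM, a length-corrected share of all transcripts in a library, so that genes can be compared with each other. All 8 zona glomerulosa markers were detected, and their summed level was 385 and 388 TPM in replicates 1 and 2. The 4 zona fasciculata markers summed to 1665 and 1302 TPM, and the 8 chromaffin markers to 1324 and 1354 TPM, in the order of the replicates. The 7 adipocyte markers, Fabp4 and Ucp1 among them, summed to 2807 and 2855 TPM. Lep and Retn of that list were over 2-fold higher in replicate 2, and none was in replicate 1. Such sums depend on which genes a list holds, and the abundant steroid pathway genes Star and Cyp21a1, given below, are in no marker list. The sums therefore do not rank the tissues by their share of RNA. Other marker sums moved between the libraries: 8 liver markers summed to 312 TPM in replicate 1 and to 5429 TPM in replicate 2, and 4 lymphocyte markers were at 38.6 and 5.19 TPM. In such bulk tissue, fewer cells of a type and less RNA per cell cannot be told apart.

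Of the 9 renin-angiotensin genes, 8 were detected with at least 1 TPM in both libraries, and Mas1 was not. The background share of nuclear protein-coding genes detected this way was 54.2%. The AT1 receptor gene Agtr1a had the highest mean level of the 9, at 62.5 ± 8.63 TPM (SD, n = 2), and the detected genes reached down to Ren1 at 2.41 ± 1.35 TPM (SD, n = 2). Agt was 12.3-fold higher in replicate 2 and Ren1 was 2.32-fold higher in replicate 1. The other 6 detected genes differed by less than 2-fold between the libraries. As background, 12535 nuclear protein-coding genes reached an average of 1 TPM: 3.37% of them exceeded 2-fold in favour of replicate 2 and 2.52% in favour of replicate 1. The median size of the difference between the libraries was 0.21 on the log2(TPM + 1) scale over the 8 genes, and 0.14 over the 12535 genes. Summed over the 9 genes, the level was 116 TPM in replicate 1 and 141 TPM in replicate 2.

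**Figure D1:**
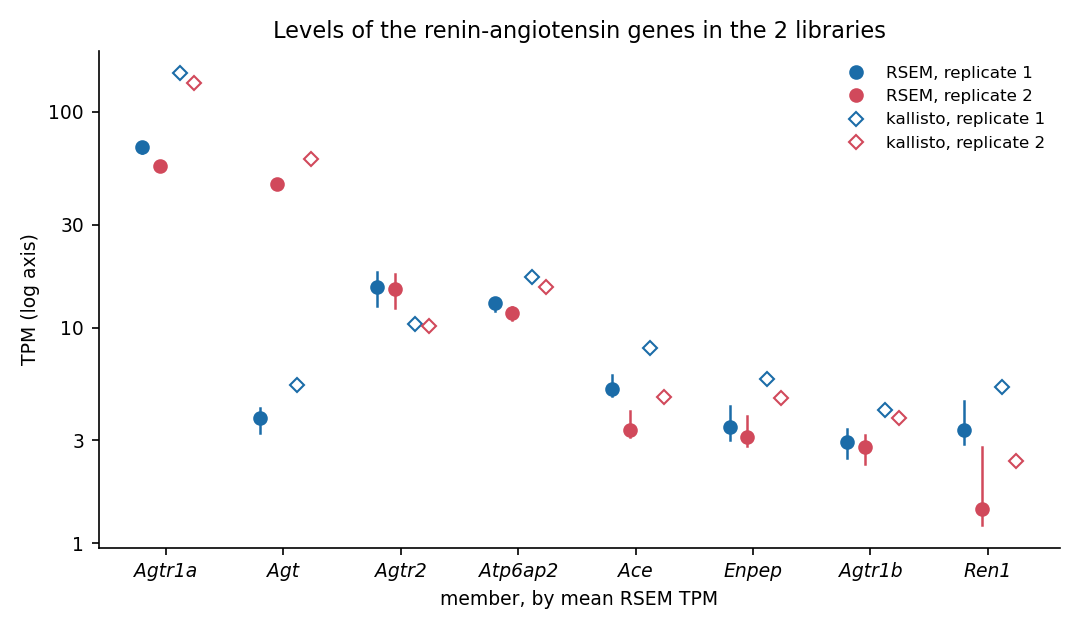
Level of the 8 detected renin-angiotensin genes in each library, in TPM on a log axis, ordered by mean. Filled circles are the RSEM values with the deposited credibility bounds as vertical lines, and open diamonds are the kallisto values. Agtr1a is highest at 68.6 and 56.4 TPM by RSEM, Agt separates the libraries at 3.80 and 46.6 TPM, and Mas1, at 0 in both, is not drawn.

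The substrate gene Agt and the enzyme gene Ren1 are the 2 members whose libraries differed most, in opposite directions, and Ace has 2 annotated start sites that give different proteins. For these 3 genes, the 250 bases before each RefSeq start site (GRCm38.p6) are shown, 5′ to 3′ on the strand of the gene. Capitals mark TATAAA, the core of a TATA box, or its reverse complement, and TGAGGTCA, a variant of the cyclic AMP response element. These letters were searched on both strands. The Ren1 bases lie at chr1:133350424-133350673 on the plus strand, and the Agt bases at chr8:124569707-124569956 on the minus strand. The Ace bases lie on the plus strand at chr11:105967698-105967947 for the upstream start of the long somatic form, and at chr11:105974939-105975188 for the downstream start of the short form known from testis.
Ren1: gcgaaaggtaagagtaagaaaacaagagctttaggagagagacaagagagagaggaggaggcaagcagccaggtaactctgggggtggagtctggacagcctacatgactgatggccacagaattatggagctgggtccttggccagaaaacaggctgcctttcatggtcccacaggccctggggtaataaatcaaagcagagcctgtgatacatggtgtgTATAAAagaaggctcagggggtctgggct
Agt: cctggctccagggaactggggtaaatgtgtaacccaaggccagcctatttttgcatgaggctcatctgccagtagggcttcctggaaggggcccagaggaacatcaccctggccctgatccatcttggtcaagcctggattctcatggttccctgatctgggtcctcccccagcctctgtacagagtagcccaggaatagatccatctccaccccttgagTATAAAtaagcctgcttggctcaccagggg
Ace, upstream start: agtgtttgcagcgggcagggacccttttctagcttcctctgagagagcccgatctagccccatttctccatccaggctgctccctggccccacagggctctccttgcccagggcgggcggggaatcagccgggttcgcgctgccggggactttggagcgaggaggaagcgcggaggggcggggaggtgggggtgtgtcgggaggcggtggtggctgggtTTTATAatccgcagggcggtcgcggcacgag
Ace, downstream start: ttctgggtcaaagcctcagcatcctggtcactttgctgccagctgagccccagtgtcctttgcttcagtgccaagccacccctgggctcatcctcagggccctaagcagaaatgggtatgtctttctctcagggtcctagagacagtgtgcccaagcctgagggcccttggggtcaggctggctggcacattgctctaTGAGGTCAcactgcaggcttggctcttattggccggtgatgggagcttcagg
TATAAA began 29 bases before the start of Ren1 and 30 bases before that of Agt, in the direction of the gene. In the upstream Ace window it stood on the opposite strand, 31 bases before the start. TGAGGTCA was found 52 bases before the downstream Ace start and in no other window of these genes. RefSeq windows of 300 bases, from 250 before to 50 after the start, were at hand for 8 of the 9 genes, 9 windows in all, and 5 of these genes held TATAAA in a window. The background is 13.6% of 32851 mouse windows with TATAAA and 2.17% with TGAGGTCA. The 9 windows ranged in base composition from Agtr2, with 41.3% G and C, to the upstream Ace window, with 69.7% and 29 CpG pairs. The Atp6ap2 window, with 60.3% G and C and 24 CpG pairs, was closest to that Ace window. A match of letters describes the sequence and does not show that a factor binds there.

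Agt (chr8:124556534-124569706, minus strand), the angiotensinogen gene, was measured at 3.80 TPM from 224 expected counts in replicate 1 and at 46.6 TPM from 2972 in replicate 2. The credibility bounds deposited with the values cover uncertainty within a library, and not only that of assigning reads to transcripts. For Agt they were 3.26 to 4.24 TPM and 44.1 to 47.4 TPM and did not overlap. Such bounds do not cover the spread between libraries, so here and below their overlap is no test of a difference. Replicate 2 was the high library, and the mean of 25.2 ± 30.2 TPM (SD, n = 2) describes neither. Among nuclear protein-coding genes, Agt ranked 9276 by level in replicate 1 and 1028 in replicate 2. All its counts were on Agt-201, its single annotated transcript, shown above with its start. By kallisto, the other quantification deposited for these libraries, Agt was at 5.42 and 60.5 TPM, an 11.2-fold difference.

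The difference in Agt lay beside that of liver transcripts. All 8 liver markers, which included the serum protein genes Alb, Apoa1 and Ttr, were over 2-fold higher in replicate 2, by 15.6- to 21.4-fold. Alb was at 173 and 3072 TPM in replicates 1 and 2. The level of Agt was 2.20% of that of Alb in replicate 1 and 1.52% in replicate 2. The 3 nuclear protein-coding genes nearest to Agt in level over both libraries were Itih2 at 3.88 and 49.7 TPM, Bhmt at 3.54 and 49.5 TPM, and Kng1 at 3.49 and 58.0 TPM. Their distances from Agt were 0.10, 0.12 and 0.33 on the log2(TPM + 1) scale. The part of liver or fat RNA in the Agt level was not tested.

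Ren1 (chr1:133350510-133360325, plus strand), the renin gene, had the lowest mean of the 8 detected genes. It had 165 expected counts, or 3.36 TPM, in replicate 1 and 77, or 1.45 TPM, in replicate 2. The credibility bounds were 2.90 to 4.59 TPM in replicate 1 and 1.21 to 2.79 TPM in replicate 2. These bounds did not overlap, and replicate 1 was higher. By kallisto the values were 5.29 and 2.41 TPM, a 2.20-fold difference in the same direction. All counts fell on Ren1-201, and the short Ren1-202 was at 0 in both libraries. The RefSeq start shown above lies 164 bases inside the GENCODE start of Ren1-201. Some inbred strains carry a duplicate renin gene, Ren2, and whether CAST/EiJ does is not given in the sources used here.

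In the kidney renin is made by juxtaglomerular cells, which belong to the mural lineage of arterioles, and kidney and mural markers are therefore given beside Ren1. None of 10 kidney markers was detected, their summed level was 1.04 and 0.780 TPM in replicates 1 and 2, and Umod and Slc12a1 were at 0 in both. Over the 12535 genes that averaged 1 TPM or more, 62.5% were higher in replicate 1. So were 7 of 8 mural markers, with a sum of 113 TPM there against 83.4 TPM in replicate 2. The smooth muscle genes Acta2 (25.5 and 9.84 TPM) and Myh11 (5.71 and 2.05 TPM) were over 2-fold higher in replicate 1, by 2.59- and 2.79-fold. The pericyte gene Pdgfrb was at 12.8 and 11.2 TPM. The lymphocyte sum, 7.44-fold higher in replicate 1, moved the same way as Ren1. The part of these cells in the Ren1 difference was not tested.

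Ace (chr11:105967945-105989964, plus strand), the converting enzyme gene, was measured at 5.18 TPM from 753 expected counts and at 3.34 TPM from 534 in replicates 1 and 2. The mean was 4.26 ± 1.30 TPM (SD, n = 2). Replicate 1 was 1.55-fold higher, and the credibility bounds, 4.84 to 6.04 TPM and 3.12 to 4.09 TPM, did not overlap. Kallisto gave 8.07 and 4.78 TPM, a 1.69-fold difference. Ace is known as an enzyme of endothelial surfaces, and all 8 endothelial markers were also higher in replicate 1, none by over 2-fold, with sums of 267 and 233 TPM. That direction was shared by 62.5% of all genes, as given above, and by 6 of 7 fibroblast and capsule markers. The part of endothelial RNA in the Ace difference was not tested.

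The somatic form carried most of the Ace signal. Ace-201, with 25 exons and 4906 bases, held 595.7 and 445.5 expected counts, 72.8% and 78.1% of the gene's TPM in replicates 1 and 2. Ace-203, of 3649 bases, held 23.9% and 18.9%. Ace-202, the 14-exon transcript that begins 19 bases from the downstream start shown above, held 13.02 and 8.59 expected counts, 3.28% and 3.00% of the TPM. Kallisto assigned Ace-202 0 in both libraries and gave Ace-201 64.3% and 75.4% of the TPM. It put 9.71 and 1.16 estimated counts on Ace-204, a processed transcript of 695 bases. These made up 0.992 and 0.106 TPM of the kallisto levels of Ace given above, and RSEM put 0 there. Of the 2319 windows of 100 bases in Ace-202, 91.5% also occur in Ace-201, which leaves 196 specific to the short form, whereas 2684 of the 4807 windows of Ace-201 are absent from Ace-202.

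Enpep (chr3:129269175-129332720, minus strand), the aminopeptidase A gene, was at 3.47 and 3.11 TPM from 329 and 386 expected counts, a mean of 3.29 ± 0.255 TPM (SD, n = 2). The bounds, 3.03 to 4.31 TPM and 2.84 to 3.91 TPM, overlapped, and replicate 1 was 1.12-fold higher. The transcripts of Enpep did not move together. The coding transcript Enpep-201 had 1.72 TPM in replicate 1 and 2.28 TPM in replicate 2, where it was 1.33-fold higher. The retained-intron transcripts Enpep-202 and Enpep-203 summed to 1.5 and 0.760 TPM, from only 76.4 and 48.7 expected counts, and were 1.97-fold higher in replicate 1. The coding share of the gene's TPM was 49.4% and 73.3%. Kallisto gave the same directions, with the coding transcript 1.45-fold higher in replicate 2 and the retained-intron transcripts 2.28-fold higher in replicate 1.

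Agtr1a (chr13:30336441-30382867, plus strand), which encodes an AT1 receptor of rodents, was measured at 68.6 TPM from 4256 expected counts in replicate 1. Replicate 2 gave 56.4 TPM from 3922.83 expected counts. The bounds, 64.7 to 71.5 TPM and 54.3 to 59.5 TPM, did not overlap, and replicate 1 was 1.22-fold higher. It ranked 627 and 836 among the 22015 nuclear protein-coding genes. Its level was 1.76 and 1.56 times that of Cyp11b2, the aldosterone synthase gene of the zona glomerulosa, which was at 39.1 and 36.1 TPM. The nearest nuclear protein-coding genes in level over both libraries were Arpc1b at 68.4 and 55.4 TPM, Xdh at 67.0 and 56.8 TPM and Pgls at 66.6 and 57.3 TPM.

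Agtr1b (chr3:20314473-20367177, minus strand), the other rodent AT1 receptor gene, was far lower than Agtr1a. It was at 2.95 and 2.80 TPM from 190 and 189 expected counts, a mean of 2.88 ± 0.106 TPM (SD, n = 2), and the bounds of 2.49 to 3.38 TPM and 2.34 to 3.18 TPM overlapped. Within a library, Agtr1a was 23.3-fold above Agtr1b in replicate 1 and 20.2-fold above it in replicate 2, a log2 ratio of 4.44 ± 0.15 (SD, n = 2). That gap is far wider than the spread of either gene between libraries. Kallisto gave a wider gap, 36.2-fold. Agtr1b-201 carried 82.4% and 70% of the gene's TPM, and Agtr1b-202 carried the rest, 17.6% and 30%.

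The AT1 genes are close paralogs, and the start of their coding sequences shows how closely they match. The 90 bases from the start codon, taken from the GENCODE transcripts Agtr1a-201 and Agtr1b-201, are given with the 8 bases that differ in capitals.
Agtr1a: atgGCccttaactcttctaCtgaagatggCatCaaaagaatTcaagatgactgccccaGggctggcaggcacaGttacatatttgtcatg
Agtr1b: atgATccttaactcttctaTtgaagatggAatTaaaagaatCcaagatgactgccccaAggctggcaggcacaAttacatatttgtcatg
Over the whole coding sequence of 1077 bases, 978 bases (90.8%) were identical and 99 differed. Of the 31-base windows of Agtr1b-201, 93 of 2117 (4.39%) also occur in Agtr1a-201, and no 100-base window is shared. In replicate 2 the expected counts of both genes were fractions, 3922.83 and 189.17, that sum to 4112, as when a read is divided between genes.

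Agtr2 (chrX:21484544-21489164, plus strand), the AT2 receptor gene, is known for high expression in fetal tissue and in the adrenal. It was at 15.4 and 15.1 TPM from 812 and 892 expected counts, a mean of 15.3 ± 0.219 TPM (SD, n = 2). The bounds, 12.5 to 18.1 TPM and 12.3 to 17.6 TPM, overlapped almost wholly. Agtr2 lay 5.31-fold above Agtr1b, a log2 ratio of 2.41 ± 0.03 (SD, n = 2), but 2.60-fold above it by kallisto. Agtr1a lay 4.07-fold above Agtr2, a log2 ratio of 2.03 ± 0.18 (SD, n = 2). The nearest nuclear protein-coding genes in level were Agap1, at 15.4 and 15.2 TPM, then Phpt1 and Pih1d1.

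The gaps between Agtr2 and both AT1 genes turned on short transcripts. Agtr2-202, an annotated processed transcript of 314 bases with no coding sequence, held 58.1 and 59.6 expected counts by RSEM. That is 7.15% and 6.68% of the gene's counts, but 53.3% and 51.5% of its TPM, because TPM divides by length. Kallisto assigned it 0, left all counts on Agtr2-201 and put Agtr2 at 10.4 and 10.2 TPM. In Agtr1a the reverse held: kallisto put 229 and 242 estimated counts on Agtr1a-206, of 445 bases, which made 41.8% and 43.5% of the gene's TPM. RSEM put 4.51 and 4.63 expected counts there, under 1% of the TPM, and 87.7% and 91.4% on Agtr1a-201. Kallisto thus gave Agtr1a at 151 and 137 TPM and a gap to Agtr2 of 13.9-fold. Dividing all counts of each gene by the length of its longest coding transcript, a choice made after these shares were seen, gave a gap of 7.28-fold. On that scale Agtr2 lay 2.89-fold above Agtr1b. Agtr1a stayed above Agtr2, and Agtr2 above Agtr1b, in both libraries under each of these 3 scales.

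**Figure D2:**
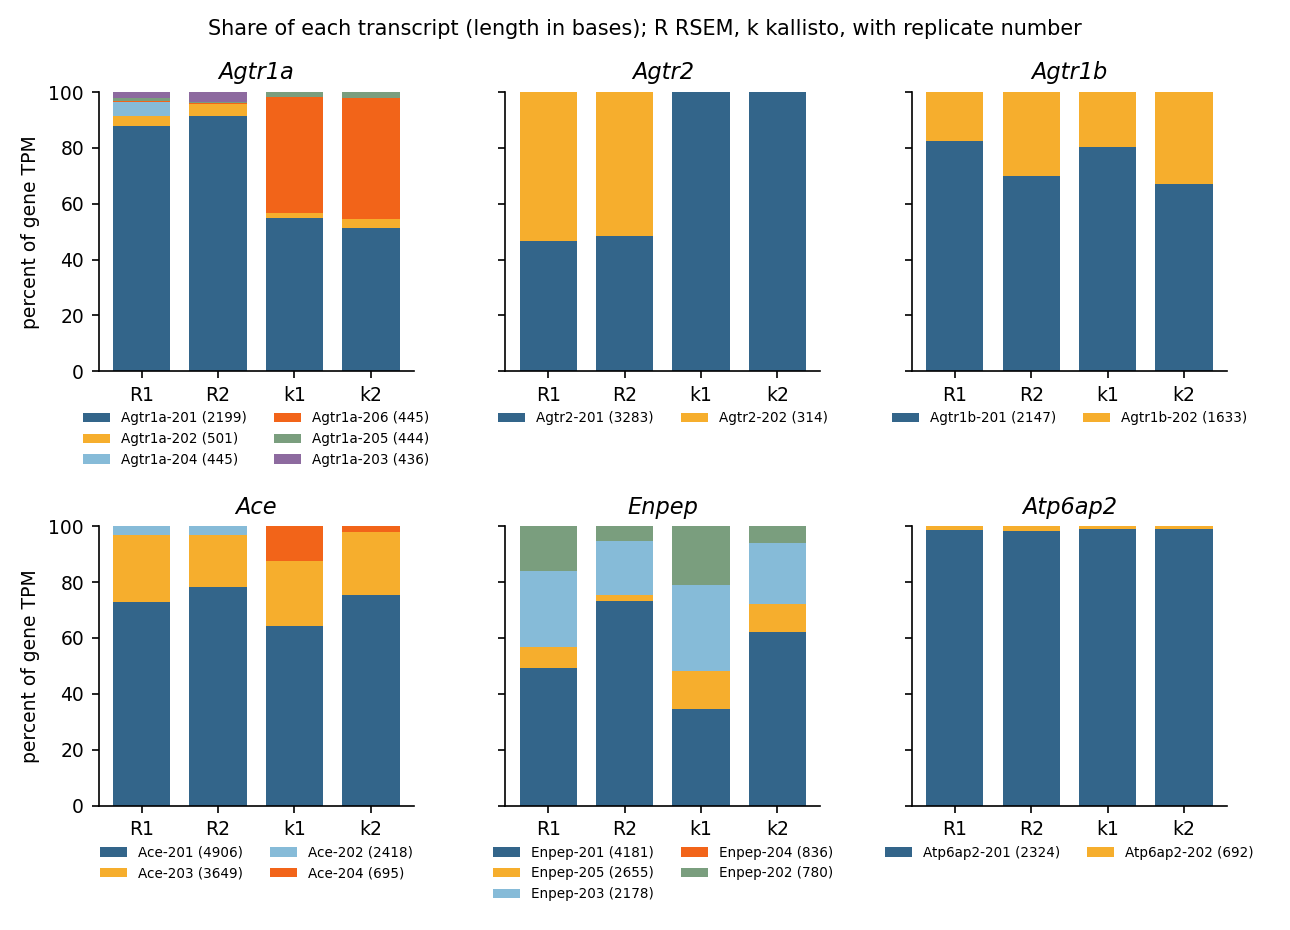
Share of each annotated transcript in its gene's TPM, in percent, for the 6 members with more than 1 expressed transcript, with transcript lengths in bases. Bars R1 and R2 are RSEM values and k1 and k2 kallisto values of replicates 1 and 2. Agtr2-202 takes 53.3% and 51.5% by RSEM and 0 by kallisto, Agtr1a-206 takes 41.8% and 43.5% by kallisto, and Enpep-201 takes a larger share in replicate 2 by both.

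Kallisto levels were higher than RSEM levels in general, by a median of 1.52-fold over 12529 nuclear protein-coding genes, with quartiles of 1.41 and 1.71. Ace (1.51), Enpep (1.60) and Ren1 (1.60) lay between these quartiles. Agtr1b (1.38), Atp6ap2 (1.32) and Agt (1.31) lay somewhat below. Agtr1a at 2.30 and Agtr2 at 0.675 stood outside them on opposite sides. In both a short transcript was assigned differently, but this also held for Ace, which lay between the quartiles. There Ace-204 was at 0 by RSEM and held 12.3% and 2.22% of the gene's TPM by kallisto.

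Mas1 (chr17:12841079-12868143, minus strand), the Mas receptor gene, was at 0 in both libraries, on each of its 10 annotated transcripts and by both quantifications. A count of 0 allows up to 3 counts, which on a transcript of 2401 bases would be 0.0397 TPM in replicate 1 and 0.0366 TPM in replicate 2. On the shortest, Mas1-203 of 409 bases, it would be 0.294 and 0.272 TPM. Expression below these limits was not detectable at this depth, and they cover counting error only. The deposited posterior means, which are above 0 for this gene without a read, were 0.38 and 0.35 TPM, with bounds of 0.136 to 0.695 TPM and 0.123 to 0.638 TPM. The gene is overlapped on the opposite strand by the long noncoding RNA Airn, which held 128 and 125 expected counts, or 4.10 and 3.82 TPM. The library kit is directional per the labels, and whether the quantification used strand is not given in the sources used here. Of the other members, Ace, Agtr1a and Enpep are overlapped by annotated genes: the partners of Ace and Enpep were at 0, and Gm48161, within Agtr1a on its strand, held 34 and 33 expected counts.

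Atp6ap2 (chrX:12587801-12617049, plus strand), the (pro)renin receptor gene, was at 12.95 and 11.71 TPM from 938 and 917 expected counts, a mean of 12.3 ± 0.877 TPM (SD, n = 2). The bounds of 11.95 to 13.7 TPM and 10.8 to 12.5 TPM overlapped. Nearly all of it was on Atp6ap2-201, with 98.8% and 98.4% of the TPM. Of 14 other genes of the vacuolar proton pump, all were detected and none differed by over 2-fold, with means from 16.1 to 96.8 TPM, so Atp6ap2 lay below the whole list. The highest were Atp6v0c, which forms the membrane ring, at 100.2 and 93.4 TPM, Atp6v1e1 at 71.1 and 74.1 TPM and Atp6v0e at 51.3 and 50.7 TPM. Atp6ap2 was at 31.5% and 28.9% of the level of Atp6ap1, the other accessory subunit, in replicates 1 and 2.

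Ordered by mean TPM, the members ran Agtr1a, Agt, Agtr2, Atp6ap2, Ace, Enpep, Agtr1b, Ren1 and Mas1. The range of Agt over the libraries took in Agtr2 and Atp6ap2 and overlapped that of Ace, and in replicate 1 Agt stood below all 3 of these genes. The range of Ren1 overlapped those of Ace, Enpep and Agtr1b, and the ranges of Ace and Enpep overlapped each other. The order within these pairs is not resolved. By kallisto, and with 1 length per gene, Atp6ap2 stood above Agtr2. With 1 length per gene, Agtr1b also stood above Enpep, at 2.71 and 2.55 TPM, with ranges that overlapped. Agtr1a was first and Mas1 last under each scale.

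**Figure D3:**
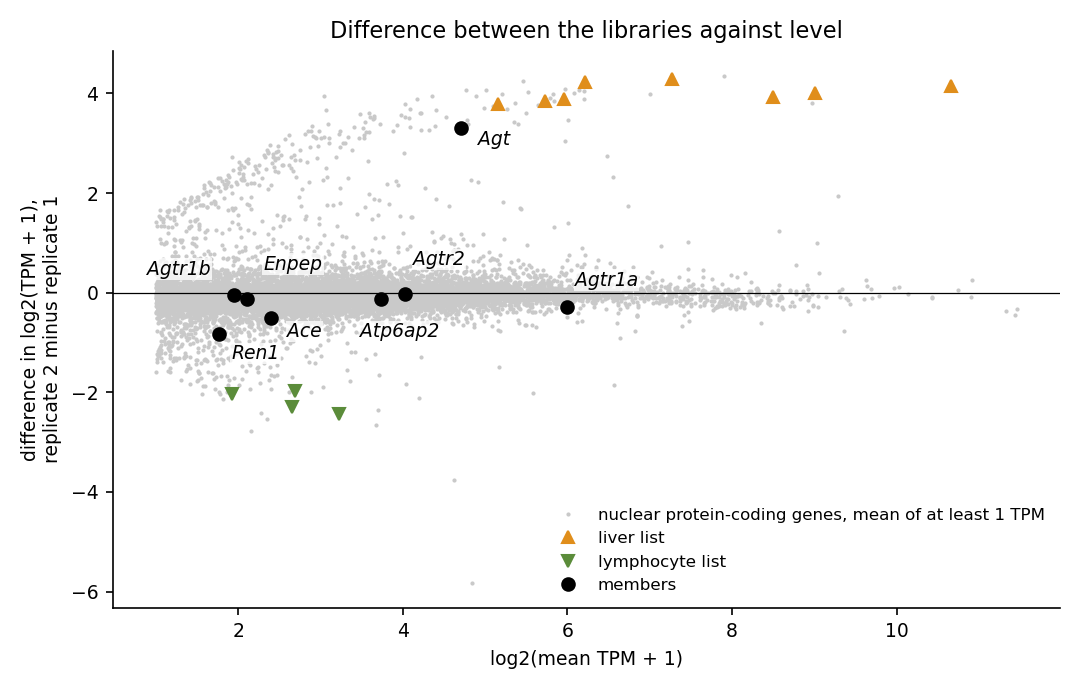
Difference between the libraries in log2(TPM + 1), replicate 2 minus replicate 1, against log2 of the mean TPM + 1, for the 12535 genes that averaged 1 TPM or more (grey). Black circles are the renin-angiotensin genes, orange triangles the 8 liver markers and green triangles the 4 lymphocyte markers. Agt lies near the liver markers at 3.31, Ren1 lies at -0.83, and the other 6 genes lie between -0.51 and -0.03.

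Besides renin, the converting enzyme and aminopeptidase A, other peptidases make or break angiotensins. Of 16 such genes 13 were detected. The lysosomal proteases Ctsd at 180.4 and 183.6 TPM and Ctsb at 143 and 156 TPM were highest, followed by Lnpep, which encodes the membrane aminopeptidase that binds angiotensin IV, at 32.9 and 32.3 TPM. Anpep, the aminopeptidase N gene, was the only gene of this list over 2-fold apart among those with an average of 1 TPM or more, at 3.26 and 8.23 TPM, 2.52-fold higher in replicate 2. The median difference of the 13 detected genes was -0.07 on the log2(TPM + 1) scale, against -0.06 over all genes. The genes of the mast cell proteases Cma1, an alternative maker of angiotensin II, and Mcpt4 were at 1.56 and 1.16 TPM and at 0.720 and 0.890 TPM.

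Of 8 genes whose proteins bind or partner the receptors, 6 were detected, none over 2-fold apart, with 3 higher in each library. Atp6ap1, already given, was highest, followed by Mtus1, which encodes an AT2-interacting protein, at 25 and 29.9 TPM. Zbtb16, which encodes the zinc finger protein that binds the AT2 receptor, was at 29.1 and 24 TPM. Agtrap, which encodes the AT1-associated protein, was at 12.04 and 12.17 TPM. Mrgprd, a receptor gene of the Mas family, was at 0 in both libraries, as Mas1 was.

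All 16 genes of AT1 receptor signalling were detected, and none was over 2-fold apart. Rgs2, a brake on Gq signalling, was highest at 101 and 127 TPM, and the calcium release channel genes Itpr1 at 33.2 and 32.7 TPM and Itpr2 at 24.5 and 25.2 TPM followed. The G protein genes Gnaq, at 16.6 and 15.6 TPM, and Gna11, at 17.9 and 17.5 TPM, lay below Agtr1a. The list's median difference was -0.05 on the log2(TPM + 1) scale, with 5 genes higher in replicate 2 and 11 in replicate 1. Over all genes averaging 1 TPM or more, the median was -0.06 and 62.5% were higher in replicate 1.

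Of 15 genes of the aldosterone response, 13 were detected. Star, which delivers cholesterol to the mitochondrion, was at 1756 and 2099 TPM, Cyp21a1, the steroid 21-hydroxylase gene, at 973 and 1032 TPM, and Kcnk3, a potassium channel gene of glomerulosa cells, at 180.4 and 189.2 TPM. Nr4a2, a transcription factor gene, was 7.19-fold higher in replicate 2, at 1.81 and 13.02 TPM. Its paralog Nr4a1 was 1.93-fold higher there, at 95.1 and 183 TPM. Of the 13 genes averaging 1 TPM or more, 9 were higher in replicate 2 and 4 in replicate 1. Cyp11b2, given above, and Hsd3b6, at 16.5 and 12.9 TPM, were among the latter. A part of angiotensin II in these differences was not tested. The median difference of the list was 0.09 on the log2(TPM + 1) scale, against -0.06 over all genes. Of all genes averaging 1 TPM or more, 62.5% were higher in replicate 1. Kcnj5, a potassium channel gene, and Hsd11b2, the enzyme gene that protects the mineralocorticoid receptor, were below 1 TPM in both libraries.

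The kinin genes share Ace, which also breaks down bradykinin. Of these 4 genes 3 were detected. The kininogen gene Kng1 was 16.6-fold higher in replicate 2, at 3.49 and 58.0 TPM, and is a near neighbour of Agt in level, as given above. Kng2 was 2.32-fold higher there, at 7.53 and 17.4 TPM, and these near-identical paralogs can exchange reads. The receptor gene Bdkrb2 was at 2.67 and 3.20 TPM, and Bdkrb1 at 0 and 0.0700 TPM.

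**Figure D4:**
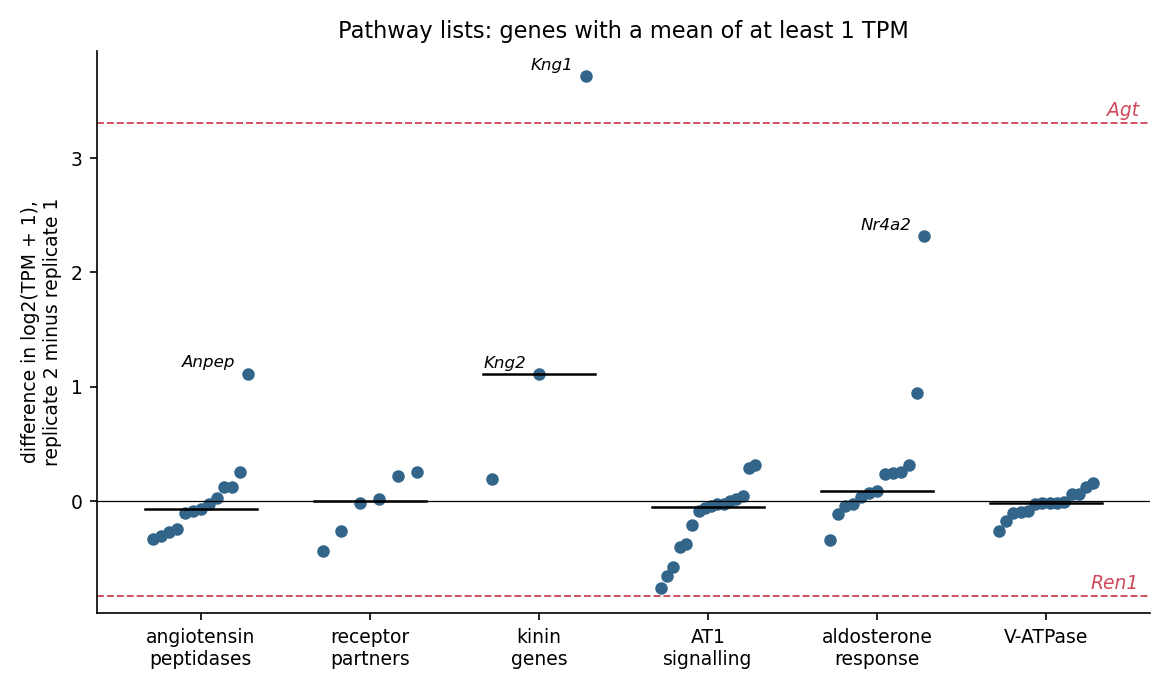
Difference between the libraries in log2(TPM + 1), replicate 2 minus replicate 1, for each gene averaging 1 TPM or more in 6 pathway lists. Short black lines are list medians, dashed lines give Agt at 3.31 and Ren1 at -0.83, and the named genes are over 2-fold apart. The 16 AT1 signalling genes and the 14 vacuolar proton pump genes all lie within 2-fold.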

How the data were processed

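Expected counts and TPM per gene and transcript were deposited by the authors, quantified on mm10 with GENCODE M21 as the deposited list of files states. Per the file headers, its columns match RSEM output, and no tool version is stated in what was used here. Per the file headers, the deposited tables further give a posterior mean TPM and lower and upper credibility bounds, a signal without a fixed total and of unstated level. The percent of TPM per transcript is deposited too and was recomputed from TPM. A deposited column of effective length, in bases, lay 99 bases under the full length by RSEM. The other quantification, with kallisto's column names per the file headers, gives estimated counts and TPM per transcript, which were summed here to genes. FPKM was not used. TPM covers all entries, so reads of abundant noncoding RNA lower it. CAST alleles were read against mm10, and the effect was not measured.

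A planned ratio and the list gene it needs are not reported here. The members, the 18 gene lists (147 genes, all found in the annotation) and the alternatives were chosen with earlier results of these data known. The text names all 9 members, and of each pathway list the 3 genes highest in mean TPM, those over 2-fold apart with a mean of at least 1 TPM, and those at 0 in both libraries; further list genes named were chosen after their values were seen. Nearest genes minimise Euclidean distance in log2(TPM + 1), pseudocount 1, over the libraries. Transcripts described hold at least 10% of gene TPM in either library by RSEM, besides those chosen after their values were seen (Ace-202, Ace-204, Agtr1a-206, Ren1-202 and Mas1-203). Values are means ± SD of 2 libraries. Where nothing ties them to separate animals, the spread may be technical. With 2 replicates of 1 group no test was made. The step that counts genes over 2-fold apart was checked on simulated counts. These held counting noise only, which is less than the spread between the real libraries. The check therefore covers the counting step and not the calls in these data. Tables were handled with pandas 2.3.3 and numpy 2.4.6 in Python 3.11.15, and plots drawn with matplotlib 3.10.9.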

Additional observations from a re-analysis of the deposited data

How the results depend on the processing

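Log2 ratios of receptors moved with the quantification. Agtr1a over Agtr1b was 4.44, and 5.18 by kallisto. Agtr1a over Agtr2 was 2.03, but 3.80 by kallisto and 2.86 with 1 length per gene, an alternative added after the data were seen. In single libraries the ratios ranged from 4.33 to 4.54 and from 1.90 to 2.15. The number of members detected was 8 in either library alone, by kallisto, by posterior means and at 0.5 TPM, and 7 at 2 TPM, where Ren1 fell out. With a minimum mean of 5 TPM, 1 member (Agt) and not 2 stood over 2-fold apart. Other scalings, kallisto and a pseudocount of 0.1 kept the direction of Agt (3.26 to 3.68 in log2) and Ren1 (-1.28 to -0.88). The sign turned for Enpep under spike-in and median-of-ratios scaling and for Agtr2 under the latter, both within 0.26 of 0. No scaling moved the median of all genes by over 0.1. Kallisto moved 7 of 9 levels by more than 1 SD, but its levels were higher in general, by a median of 1.52-fold over 12529 genes. Only Agt, with an SD of 30.2 TPM, and Mas1, at 0 on both scales, stayed within 1 SD. No paired analysis was possible because there is 1 group. With 77 to 165 counts, Ren1 is the least precise of the detected members.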
